A study of Mus musculus with 20 samples.

Results

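Genes that move, store and oxidise iron and copper were followed by symbol on expression arrays of mouse fat cells, and all 10 of them were found among the 19505 genes measured. They are the transferrin receptors Tfrc and Tfr2, the importer Slc11a2, the exporter Slc40a1, the ferritin chains Fth1 and Ftl1, the carrier protein transferrin (Trf) and the multicopper oxidases Heph, Hephl1 and Cp. The set was chosen by a measured pattern, the low Tfr2 and Hephl1 signals on knockout sc arrays, so values from the sc comparison are a description. The samples are adipocytes from adipose tissue that were differentiated outside the animal, per the labels. There are 4 groups of 5 arrays, since wild-type mice and Olfm2 knockout mice each gave cells of 2 depots, which the labels call sc and g. The series' design text puts the name of another gene, PKP2, on the 10 sc arrays, whereas each array's own label gives wild type or Olfm2 knockout in both depots; the array labels were used. Olfm2 encodes the secreted glycoprotein olfactomedin 2. The knockout's design, the strain, age, sex and diet of the mice, and whether animals were pooled are not stated by the labels. Nor do they state separate cultures, and p-values thus reflect only the spread between arrays, which may be technical.

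Iron travels in blood bound to transferrin and enters most cells when the transferrin receptor carries this complex into endosomes, where Slc11a2 (DMT1) moves the metal into the cytosol. Iron that is not used is stored inside the ferritin shell, built of heavy and light chains, or leaves through ferroportin (Slc40a1), the known iron exporter. Copper-bearing ferroxidases such as hephaestin and ceruloplasmin oxidise the iron on its way out. TFR2 is best known as an iron sensor of hepatocytes and red cell precursors that acts on hepcidin, the hormone that removes ferroportin from the cell surface. Iron recycling from haem is a main task of macrophages, which also live in fat.

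The stretches of DNA before the start sites are shown for the genes on which the results turn: Tfr2 and Hephl1, which were low together on knockout sc arrays, and the ferritin chains, which were high together on wild-type g arrays. RefSeq windows of assembly GRCm38.p6 were at hand for 6 of the 10 genes, 11 windows in all, and of several windows of a gene the one with the most motif matches is printed. Each is the 250 bases before an annotated start, 5′ to 3′ on the gene's strand (plus for Tfr2 and Fth1, minus for Hephl1 and Ftl1), and capitals mark motif matches.
Tfr2 chr5:137569590-137569839: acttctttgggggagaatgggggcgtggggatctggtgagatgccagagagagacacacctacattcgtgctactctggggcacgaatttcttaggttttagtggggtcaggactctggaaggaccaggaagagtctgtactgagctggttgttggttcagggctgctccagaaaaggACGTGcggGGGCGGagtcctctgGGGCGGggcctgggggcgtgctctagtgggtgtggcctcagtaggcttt
Hephl1 chr9:15112109-15112358: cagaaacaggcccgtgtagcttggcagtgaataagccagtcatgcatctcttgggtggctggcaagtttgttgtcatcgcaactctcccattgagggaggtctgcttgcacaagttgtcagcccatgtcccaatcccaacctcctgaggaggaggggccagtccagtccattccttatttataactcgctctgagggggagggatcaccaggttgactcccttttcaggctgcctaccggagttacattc
Fth1 chr19:9982396-9982645: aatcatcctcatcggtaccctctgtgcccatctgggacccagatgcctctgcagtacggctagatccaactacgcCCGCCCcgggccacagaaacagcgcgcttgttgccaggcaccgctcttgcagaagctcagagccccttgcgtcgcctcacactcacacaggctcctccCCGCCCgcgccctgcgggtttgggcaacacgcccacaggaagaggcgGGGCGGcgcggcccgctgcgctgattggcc
Ftl1 chr7:45459887-45460136: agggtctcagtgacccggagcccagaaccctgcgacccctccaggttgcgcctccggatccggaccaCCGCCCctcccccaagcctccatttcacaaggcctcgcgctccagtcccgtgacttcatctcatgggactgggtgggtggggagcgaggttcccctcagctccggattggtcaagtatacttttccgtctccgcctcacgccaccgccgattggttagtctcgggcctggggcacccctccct
Searched on both strands were the GC box GGGCGG, the hypoxia response core ACGTG, the metal response core (TGCACNC or TGCGCNC) and the antioxidant response core TGACNNNGC. The Tfr2 window held 2 GC boxes and 1 hypoxia core, that of Fth1 3 GC boxes and that of Ftl1 1 GC box. The Hephl1 window held 0 matches. Over 32851 windows of this length 32.7% held a GC box, 16.6% a hypoxia core, 21.4% a metal response core and 10.2% an antioxidant core. Of the 11 windows of the studied genes 4, 3, 1 and 0 did, the metal response match being in a window of Tfrc. These matches describe letters and show no binding.

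The knocked-out gene, Olfm2, fell in knockout sc arrays (-1.66, SE 0.19, limma adjusted p = 0.000152) and in knockout g arrays (-0.80, SE 0.19, adjusted p = 0.00784), with no overlap of the genotypes. Its signal was dim in wild type too, with means of 4.88 in sc and 4.34 in g, below the array medians of 5.78 to 5.92. The mean of 14 mature adipocyte markers lay between 10.91 and 11.78 on the log2 scale on every array. Other tissues were visible too. The mean of 16 hepatocyte markers was between 7.61 and 10.24 on 8 arrays (2 knockout sc, 2 wild-type g, 4 knockout g) and between 5.15 and 6.21 on the other 12. The mean of 9 lymphocyte markers was between 8.24 and 8.63 on sc286WT, sc317KO and sc320KO and at most 7.09 elsewhere, and the skeletal muscle mean reached 11.49 on sc286WT. Macrophage markers averaged 10.14 ± 0.23 on the g arrays of wild-type mice, 9.17 ± 0.40 on those of knockouts, and 8.66 ± 0.14 and 8.24 ± 0.19 on the respective sc arrays (SD, n = 5). Mast cell markers, at 7.84 ± 0.43, were highest in wild-type g, against means of 5.90 to 6.27 in the other groups. In RNA from a mixture, fewer cells of a type and less RNA per cell cannot be told apart. All values below are log2 array signals, and differences are on that scale; a probe's signal is not compared with that of another gene.

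**Figure D1:**
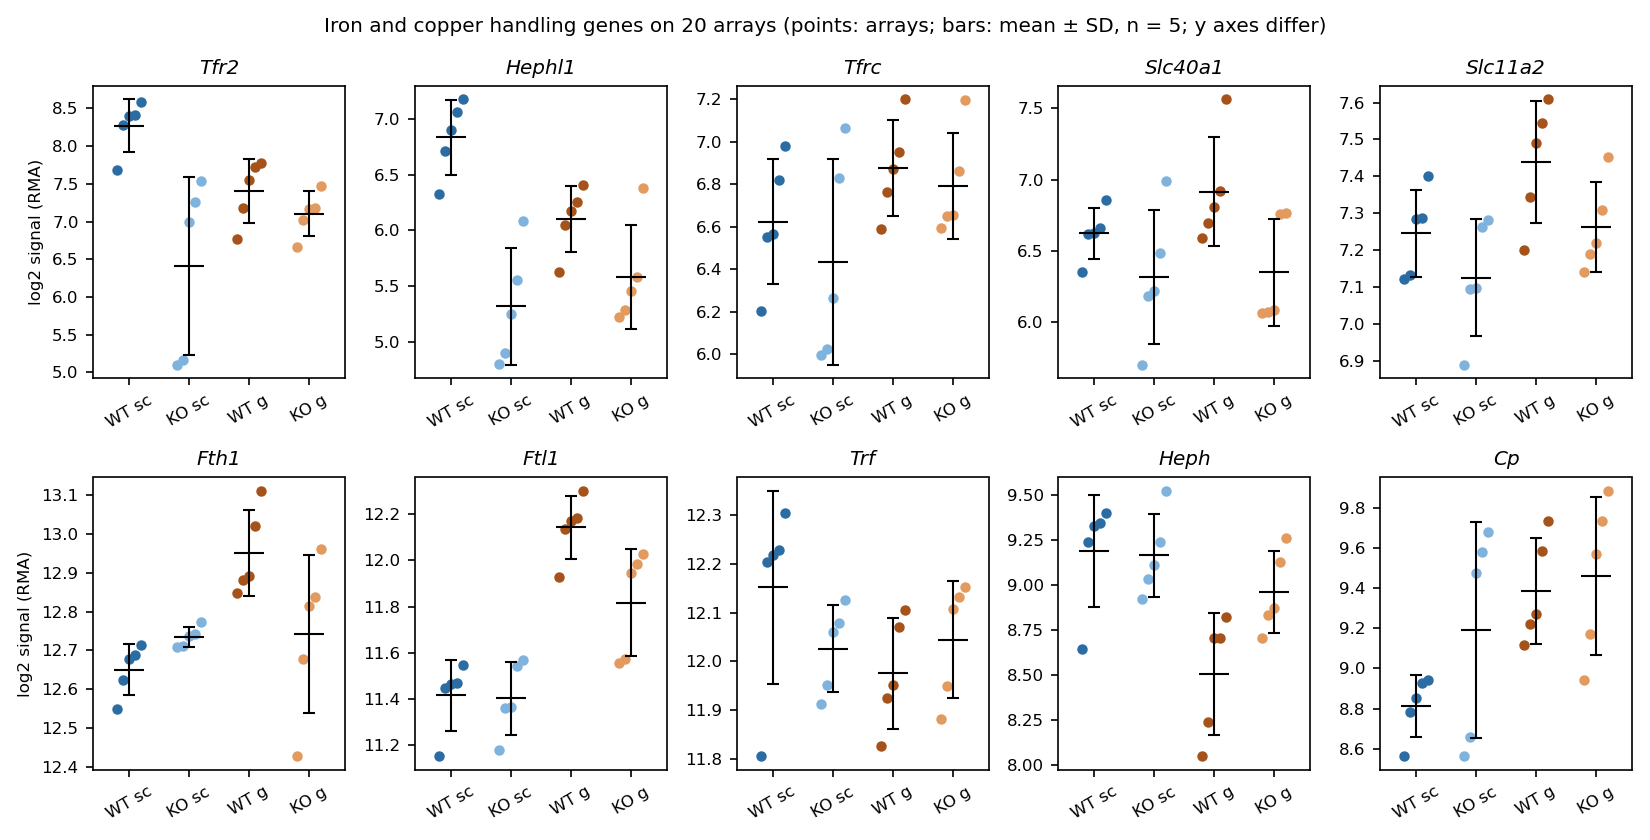
Log2 signal (y axis, RMA scale, a different range in each panel) of the 10 genes by group (x axis); points are arrays and bars the mean ± SD (n = 5). Tfr2 and Hephl1 separate the genotypes in sc, and the wild-type g arrays, at 11.93 to 12.30, lie above all sc arrays for Ftl1.

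Among the transferrin receptors, Tfr2 read lower on every knockout sc array than on any wild-type sc array. On the wild-type sc arrays it read 7.68, 8.40, 8.28, 8.41 and 8.59 (sc286WT, sc287WT, sc307WT, sc308WT, sc309WT), and on the knockout sc arrays 7.26, 6.99, 5.17, 7.53 and 5.10 (sc300KO, sc306KO, sc317KO, sc318KO, sc320KO). The groups did not overlap, and sc317KO and sc320KO stood far below the other 3. The group means were 8.27 ± 0.35 and 6.41 ± 1.18 (SD, n = 5), a difference of -1.86 (SE 0.38). The low pair of arrays are those with high lymphocyte markers. Without the 3 lymphocyte-high arrays the difference was -1.16, and without the hepatocyte-high arrays, 2 of which are knockout sc arrays with Tfr2 at 7.26 and 7.53, it was -2.52. The gap between the genotypes was thus smaller, and of the same sign, without the arrays rich in lymphocyte transcripts.

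In g the Tfr2 signal was 7.55, 7.78, 6.77, 7.73 and 7.17 on wild-type arrays (g286 WT, g287 WT, g307 WT, g308 WT, g309 WT) and 7.01, 7.16, 7.48, 7.18 and 6.66 on knockout arrays (g300 KO, g306 KO, g317 KO, g318 KO, g320 KO). The groups overlapped over most of their range. The difference was -0.30 (SE 0.38; 95% interval -1.10 to 0.50; limma adjusted p = 0.70). By group mean the order was sc and then g of wild-type mice, followed by g and then sc of knockouts, and every pair of neighbours in that order overlapped. The knockout effect in g minus that in sc was 1.56 (SE 0.54), given without a test because the sc difference chose the gene. It was 0.86 without the lymphocyte-high arrays and 2.29 without the hepatocyte-high arrays, where only 1 knockout g array is left.

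Hephl1, a membrane-bound multicopper oxidase related to hephaestin, had a like pattern. Its wild-type sc values were 6.33, 6.90, 6.71, 7.17 and 7.06 and its knockout sc values 5.25, 6.09, 4.80, 5.56 and 4.90, in the same order of arrays. No knockout sc array reached the lowest wild-type one. The means were 6.83 ± 0.33 and 5.32 ± 0.52 (SD, n = 5), a difference of -1.51 (SE 0.24), and without the lymphocyte-high arrays it was -1.33. In g the wild-type values were 6.41, 6.17, 5.63, 6.26 and 6.05 and the knockout values 5.46, 6.38, 5.29, 5.58 and 5.23. Here g306 KO lay among the wild-type arrays while 4 knockout arrays lay below all of them. The g difference was -0.52 (SE 0.24; 95% interval -1.02 to -0.01) and did not pass (adjusted p = 0.193). Without g306 KO it was -0.72 and passed (limma adjusted p = 0.0447). The effect in g minus that in sc was 0.99 (SE 0.34), again a description.

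Markers of other cells were set beside these falls. The thermogenic fat list, 11 genes such as Ucp1, averaged 6.63 to 7.02 on wild-type and 6.15 to 6.48 on knockout sc arrays, without overlap. Limma called 1 of the 11, Ucp1, which fell (-2.56, adjusted p = 0.00817), where 0.677% of all genes were called in sc. The median over the 11 was -0.18, and 2 of them were higher on knockout sc arrays. The part of this list in the values of Tfr2 and Hephl1 was not tested. Red cell precursors, where Tfr2 is also known to act, were represented by 5 measured genes with group means from 5.86 to 5.99. Epithelial markers averaged 5.10 ± 0.12 in wild-type and 4.99 ± 0.07 in knockout sc arrays (SD, n = 5), with 1 of 11 called, the keratin Krt79, which fell. The hepatocyte markers averaged 6.90 on knockout and 5.42 on wild-type sc arrays, with 0 of 16 called by limma. Tfr2 is a gene of hepatocytes too, and the part of hepatocyte RNA in its values was not tested.

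Of the 10 genes 2, Tfr2 and Hephl1, had no overlap between genotypes in sc, where 2.94% of all genes had none (1.53% with the knockout lower) and 0.677% of all genes were called; the choice of these genes used that contrast. The other 8 had sc differences between -0.31 (Slc40a1) and 0.38 (Cp), and their arrays overlapped. Tfrc, the main receptor for transferrin-bound iron, read 6.20 to 6.98 on wild-type and 5.995 to 7.07 on knockout sc arrays. Its difference in sc was -0.19 (SE 0.20).

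**Figure D2:**
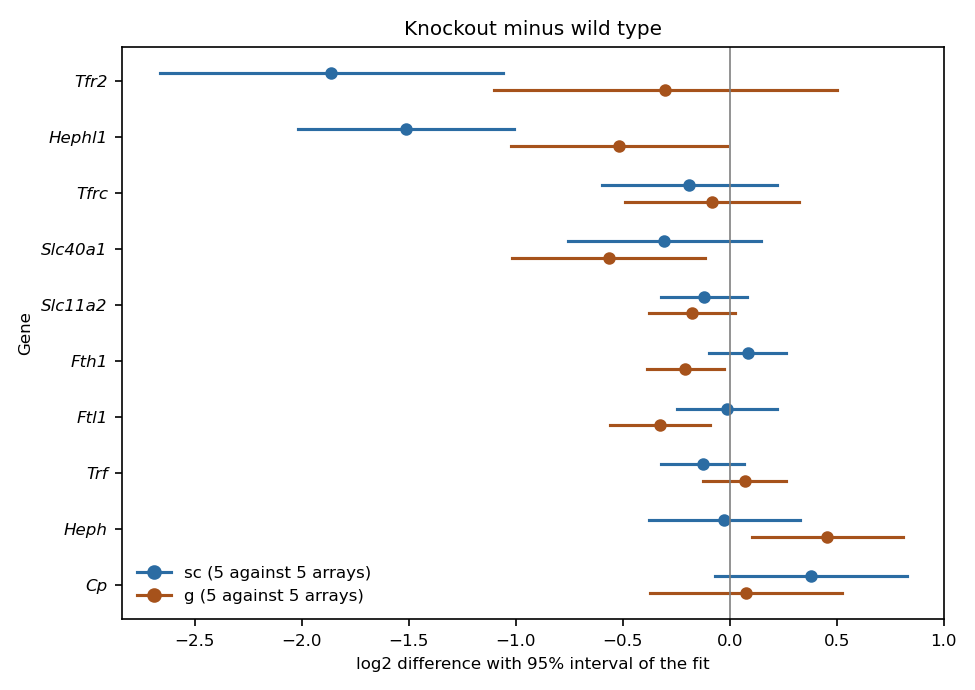
Knockout minus wild-type difference (x axis, log2, with the 95% interval of the fit) of each gene (y axis) in sc and in g, 5 against 5 arrays each. In sc Tfr2 (-1.86) and Hephl1 (-1.51) lie apart from the other genes, which are between -0.31 and 0.38; in g all 10 lie between -0.57 and 0.46.

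The g depot offers the comparison of knockout with wild type on arrays whose signals the rule for Tfr2 and Hephl1 did not use. The 10 genes were still chosen with earlier results of these data known. By the numbers in the titles, the g and sc arrays may also come from the same mice. None of the 10 passed the test in g: limma called 0 of 10, against 11.3% of all 19505 genes. At an unadjusted p under 0.05 there were 5 of 10, against 24.1% of all genes. The 5 were Ftl1, Heph, Slc40a1, Fth1 and Hephl1. The median over the 10 genes was -0.19, beside 0.02 over all genes, and 0 of 10 had arrays that did not overlap, against 10.4% of all genes. Tfrc differed by -0.08 (95% interval -0.49 to 0.32) and Slc11a2 by -0.18 (95% interval -0.38 to 0.03).

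Slc40a1, the iron exporter, had the largest g difference of the 10, at -0.57 (SE 0.22; adjusted p = 0.102). It read 6.70, 6.59, 7.56, 6.81 and 6.92 on the wild-type and 6.09, 6.76, 6.76, 6.06 and 6.07 on the knockout g arrays. Knockout arrays formed a low group of 3, while g306 KO and g317 KO lay within the wild-type range. With the hepatocyte mean as a covariate the difference was -0.77 and passed (adjusted p = 0.0359). In sc it read 6.36 to 6.86 on wild-type and 5.70 to 6.99 on knockout arrays. Slc11a2, the importer of endosomes, varied little: it read 6.89 to 7.40 over the sc arrays and 7.14 to 7.61 over the g arrays.

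Neither ferritin chain passed in g, and both differences were below 0. For Ftl1, the light chain that helps to form the iron core, the g means were 12.14 ± 0.14 without and 11.82 ± 0.23 with the knockout (SD, n = 5), a difference of -0.33 (SE 0.11; adjusted p = 0.066). Its wild-type g values were 12.18, 12.14, 12.30, 11.93 and 12.17 and its knockout g values 12.03, 11.95, 11.56, 11.98 and 11.57. Here g317 KO and g320 KO were low, and the other 3 knockout arrays lay above the lowest wild-type one, g308 WT. The call changed with small shifts of the fit: limma adjusted p was 0.0396 without the lymphocyte-high arrays, 0.0401 without g308 WT, 0.0422 without g300 KO, 0.0485 without g318 KO and 0.0483 when dim genes were left out. Fth1, the heavy chain with the ferroxidase site, read 12.43 to 12.96 on knockout and 12.85 to 13.11 on wild-type g arrays and differed by -0.21 (SE 0.09; adjusted p = 0.139).

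Macrophage markers moved in the same direction in g: 16 of 17 were called lower in knockout arrays and 1, Cd163, higher, against 11.3% of all genes called. The list means did not overlap (9.86 to 10.41 in wild-type, 8.69 to 9.61 in knockout). With the macrophage mean as a covariate, Ftl1 differed by 0.09 and Fth1 by 0.13 (adjusted p = 0.934 and 0.833), the opposite sign of the plain fit. The part of macrophage RNA in the ferritin values cannot be told apart from that of the knockout here. Both ferritin genes have many near-identical copies in the mouse genome, so signal of their probes could be shared with those.

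Of the multicopper oxidases, Heph, the ferroxidase of the cell membrane, went the other way in g. It was 8.71, 8.82, 8.05, 8.71 and 8.24 on the wild-type and 8.87, 9.26, 9.13, 8.70 and 8.83 on the knockout g arrays, so that 4 knockout arrays lay above all wild-type ones and g318 KO at the level of g286 WT. The difference was 0.46 (SE 0.17; adjusted p = 0.0905), and it passed without the lymphocyte-high arrays (limma adjusted p = 0.042). Mature adipocyte markers moved with it, at 10.91 to 11.27 on wild-type and 11.42 to 11.62 on knockout g arrays, and their part was not tested. Cp, the plasma ferroxidase ceruloplasmin, differed by 0.08 (95% interval -0.37 to 0.52) and Trf by 0.07 (95% interval -0.13 to 0.27).

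The knockout effects of g and sc share no array and were compared by their difference. Of the 8 genes for which this could be tested limma called 0, against 0.0769% of all genes. At an unadjusted p under 0.05 there was 1, Fth1, against 13.0% of all genes. The Fth1 difference between depots was -0.29 (SE 0.12; adjusted p = 0.326) and that of Heph 0.48 (SE 0.24; adjusted p = 0.399).

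Between the depots of wild-type mice, iron storage and oxidation genes were called. Ftl1 and Fth1 were higher and Heph was lower in g than in sc, 3 of 8 genes tested, against 17.8% of all genes (9.30% higher, 8.48% lower). Ftl1 was 11.42 ± 0.15 in sc and 12.14 ± 0.14 in g (SD, n = 5), higher by 0.73 (SE 0.11; limma adjusted p = 0.000109). Its sc values were 11.15, 11.46, 11.47, 11.55 and 11.45, all below the lowest g value of 11.93. Fth1 read 12.55, 12.69, 12.62, 12.68 and 12.71 in sc and 12.85, 12.89, 13.11, 12.88 and 13.02 in g, again without overlap. Its means were 12.65 ± 0.07 and 12.95 ± 0.11 (SD, n = 5), so that g was higher by 0.30 (SE 0.09; adjusted p = 0.0193). Its call was lost without g307 WT (0.26, adjusted p = 0.0621).

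Heph fell from 9.19 ± 0.31 in wild-type sc to 8.50 ± 0.34 in wild-type g (SD, n = 5), by 0.69 (limma adjusted p = 0.00683), though sc286WT, at 8.64, lay within the g range and the other 4 sc arrays, from 9.24 to 9.40, above it. Cp had no overlap either, at 8.56 to 8.94 in sc and 9.11 to 9.74 in g, and its difference of 0.57 did not pass (SE 0.21; adjusted p = 0.0716). Fitted on these 2 groups alone, it passed (adjusted p = 0.00794). Arrays without overlap were seen for Fth1, Ftl1 and Cp, 3 of the 10 genes, against 16.1% of all genes. Tfrc (0.25), Slc40a1 (0.29), Slc11a2 (0.19) and Trf (-0.18) did not pass. The difference was -0.87 for Tfr2 and -0.73 for Hephl1, given without a test; with the macrophage mean as a covariate it was -0.039 for Tfr2 and -1.14 for Hephl1.

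Macrophage markers differed between the depots as well: 16 of 17 were called higher in wild-type g than in sc, by a median of 1.58. Mature adipocyte markers were lower, 11 of 14 called with a median of -0.50. Of all genes 17.8% were called. With the macrophage mean as a covariate the depot difference of Ftl1 was 0.09 (adjusted p = 0.906), that of Heph -0.27 (adjusted p = 0.837) and that of Fth1 -0.22 (adjusted p = 0.63). Since the macrophage means of the depots do not overlap in wild-type mice, depot and macrophage markers cannot be told apart by this fit.

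**Figure D3:**
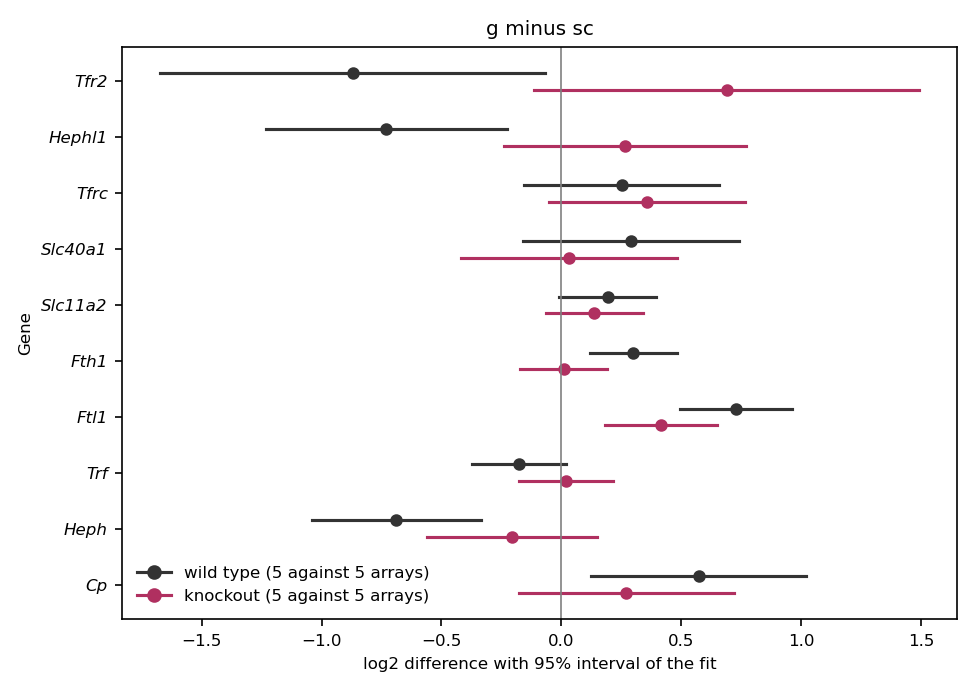
Difference of g minus sc (x axis, log2, with the 95% interval of the fit) of each gene (y axis) in wild-type and in knockout mice, 5 against 5 arrays each. Ftl1 is higher in g in both genotypes (0.73 and 0.41); the Heph difference is -0.69 in wild-type and -0.21 in knockout mice.

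In knockout mice 1 of 8 genes passed between the depots, Ftl1, against 4.13% of all genes (2.87% higher). Of the 10 genes 0 had depots without overlap there, against 4.26% of all genes. Ftl1 was 11.40 ± 0.16 in sc and 11.82 ± 0.23 in g (SD, n = 5), higher by 0.41 (SE 0.11; limma adjusted p = 0.0395). The sc arrays read 11.57, 11.36, 11.36, 11.54 and 11.18 (sc300KO, sc306KO, sc317KO, sc318KO, sc320KO), so that the low g arrays, g317 KO (11.56) and g320 KO (11.57), met the top of the sc range. This call was lost when any of sc306KO, sc317KO, sc320KO, g300 KO, g306 KO or g318 KO was left out (adjusted p from 0.0753 to 0.119), and at 0.0505 to 0.0509 without sc287WT, g286 WT or g309 WT. The Fth1 means of the 2 depots in knockout mice were 12.73 ± 0.03 and 12.74 ± 0.20 (SD, n = 5), with a 95% interval of the difference from -0.17 to 0.19. Heph differed by -0.21 (95% interval -0.56 to 0.15). The differences of Tfr2 (0.69, SE 0.38) and Hephl1 (0.27, SE 0.24) are given without a test, and without the lymphocyte-high arrays, 2 of which are knockout sc arrays, they were -0.16 and -0.046. Macrophage markers were higher in g in knockout mice too, 14 of 17 called against 4.13% of all genes, by a median of 0.98. With their mean as a covariate Ftl1 differed by 0.015 between the depots (limma adjusted p = 0.976). Without the hepatocyte-high arrays it differed by 0.73, with only 1 knockout g array, g300 KO, and 3 knockout sc arrays left.

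Several of the genes are made by the liver, where albumin (Alb) is the defining product. Alb read 6.65 to 8.48 on sc arrays of wild-type mice and 8.06 to 12.35 on those of knockouts, and in g 6.48 to 11.96 and 7.81 to 12.21. The range of transferrin was far narrower. On the 4 knockout g arrays with high hepatocyte markers Trf read 11.88 to 12.15, and on the remaining one, g300 KO, 11.95. Over all 20 arrays Trf lay between 11.81 and 12.31. Cp read 9.17 to 9.89 on those 4 arrays and 8.94 on g300 KO. In knockout sc, Cp read 9.48 on sc300KO and 8.66 on sc318KO, the arrays with high hepatocyte markers (means of 9.87 and 7.71), and 9.68 on sc317KO, 9.58 on sc320KO and 8.56 on sc306KO, with hepatocyte means of 5.24, 6.21 and 5.46. Without the lymphocyte-high arrays the sc difference of Cp was 0.08 instead of 0.38. The hepcidin gene Hamp, a hepatocyte product, read 6.75 to 9.67 on the 4 arrays and 6.24 on g300 KO, and the haem carrier Hpx 6.55 to 9.34 and 5.69.

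**Figure D4:**
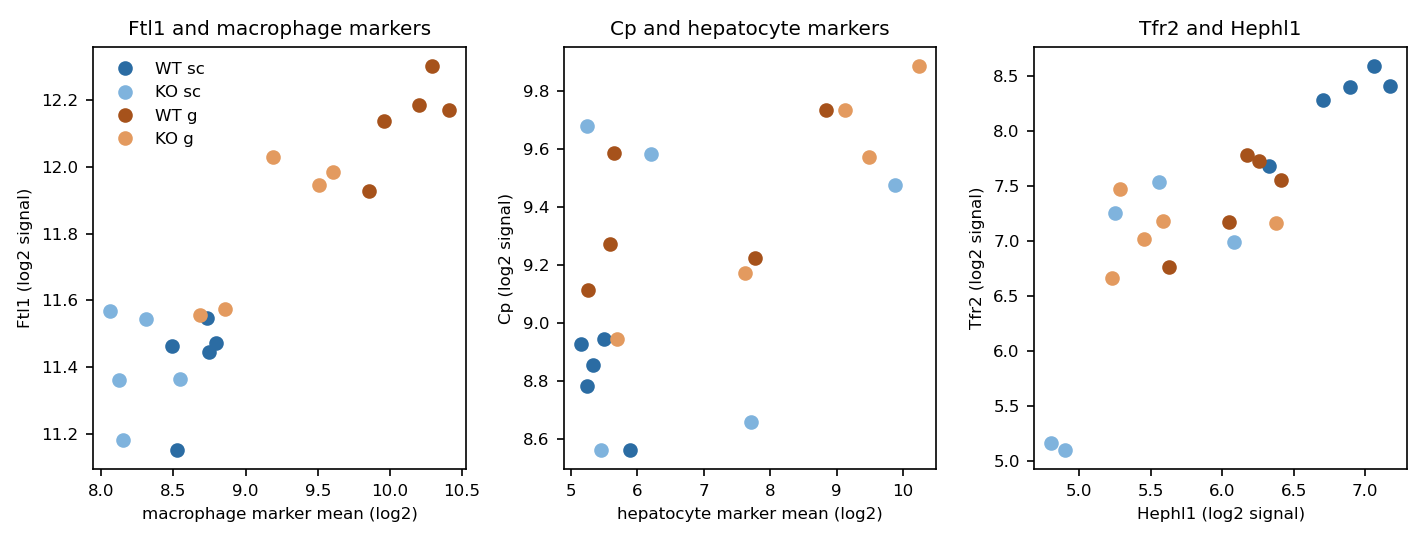
Log2 signals on the 20 arrays, coloured by group: Ftl1 (y axis) against the macrophage marker mean (x axis), Cp against the hepatocyte marker mean, and Tfr2 against Hephl1. The wild-type g arrays have the highest macrophage means (9.86 to 10.41); sc317KO and sc320KO lie apart at the low end of Tfr2 (5.17 and 5.10) and Hephl1 (4.80 and 4.90).

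Genes most like Tfr2 over the 20 arrays were Slc16a1, a lactate and pyruvate transporter (Pearson r = 0.91), Gcnt2, a glycosyltransferase (0.89), Lzic (0.88), Serpina3n, a secreted protease inhibitor (0.88), and Tnfrsf23 (0.88). With each group's mean subtracted these r were between 0.82 and 0.87. Those most like Hephl1 were the metalloprotease Adam12 (r = 0.91), the hydrolase Blmh (0.90), Pramel13 (0.90), the growth factor Fgf9 (0.89) and Pak1ip1 (0.89), between 0.69 and 0.84 after subtracting the group means. Tfr2 and Hephl1 had r = 0.84, and 0.64 after that step. Both were chosen for low signals on knockout sc arrays, so a high r between them was favoured by the choice. The spread of Tfr2 within groups was largest in knockout sc (SD 1.18, against 0.30 to 0.43 in the other groups). There sc317KO and sc320KO, with high lymphocyte markers, were lowest for both genes. These r describe 20 arrays that share groups, tissue admixture and, by number, possibly mice, and they carry no p.

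The wider machinery of iron and copper was read from 8 lists with 105 measured genes, none of them among the 10. In sc knockout arrays 1 of 105 was called, 0.952%, against 0.677% of all genes. It was Hmox1, the haem oxygenase that frees iron from haem, which fell (-0.76, SE 0.17, adjusted p = 0.0371). This call was lost when any of sc287WT, sc307WT, sc308WT, sc309WT, sc300KO, sc317KO, sc320KO or g287 WT was left out, with values from -0.87 to -0.46 over all alternatives. Macrophage markers lay lower on knockout sc arrays as well (1 of 17 called, median -0.50), and with their mean as a covariate Hmox1 differed by -0.46 (adjusted p = 0.356). Without the lymphocyte-high arrays and with the macrophage covariate 0 were called, and 4 were without the hepatocyte-high arrays. In g 25 of 105 were called, 23.8%, against 11.3% of all genes, 16 higher and 9 lower. The count was 11 with the hepatocyte covariate, 1 without the hepatocyte-high arrays and 0 with the macrophage covariate, with which 1 gene of all 19505 was called. It was 15 or 16 when g286 WT, g307 WT, g309 WT or g320 KO was left out.

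Of 12 genes of haem uptake, export and breakdown, 4 fell and 1 rose on knockout g arrays. That was 41.7%, against 11.3% of all genes, with a median of -0.42 beside 0.02 over all genes. Hmox1 fell by 0.96 (SE 0.17, adjusted p = 0.000891), its relative Hmox2 by 0.40, the biliverdin reductase Blvrb by 0.51 and the haemopexin receptor Lrp1 by 0.45. Cd163, the receptor of macrophages for haemoglobin bound to haptoglobin, rose by 1.04 (SE 0.22, adjusted p = 0.0035). Cd163 is also in the macrophage list, and it was the only one of its 17 genes to rise. With the macrophage mean as a covariate none of these 5 was called, and the differences were -0.26 for Hmox1 (adjusted p = 0.823), -0.19 for Hmox2, 0.069 for Blvrb, -0.22 for Lrp1 and 0.84 for Cd163. The Blvrb call was also lost when g307 WT, g309 WT, g317 KO or g320 KO was left out, and that of Lrp1 without g286 WT, g307 WT, g300 KO or g320 KO.

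For the assembly of iron-sulfur clusters, cofactors of the respiratory chain, 8 of 18 genes rose and 0 fell in knockout g. That was 44.4%, against 11.3% of all genes, with a median of 0.28. The outer mitochondrial membrane protein Cisd1 rose by 0.58 (SE 0.09, adjusted p = 0.000357), the scaffold Iscu by 0.46, the ferredoxin Fdx1 by 0.59 and Cisd3 by 0.59. In wild-type mice 8 of these 18 were lower in g than in sc, among them Cisd1 (-0.83), Iscu (-0.50) and Cisd3 (-0.65). That was 44.4%, against 17.8% of all genes, with a median of -0.25. In knockout mice limma called 0 of 18 between depots, against 4.13% of all genes. At an unadjusted p under 0.05 there were 4, against 17.1% of all genes. The difference of the knockout effects was called for 0 of 18, against 0.0769% of all genes. With 9 it had an unadjusted p under 0.05, against 13.0% of all genes. The g knockout effect and the wild-type depot difference both contain the wild-type g arrays. Mature adipocyte markers moved the same way, with 13 of 14 above 0 in knockout g and 8 of 14 called higher, against 11.3% of all genes called. Their part was not tested.

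The 13 genes of iron uptake and reduction had a median difference of 0.51 for wild-type g minus sc. Of them 8 were called higher in g and 0 lower, 61.5% against 17.8% of all genes. They include the ferrireductases Steap2 (0.98) and Steap3 (0.67), the metal importers Slc39a8 (0.91) and Slc39a14 (0.30), the ferritin receptor Scara5 (0.84) and the siderophore-binding Lcn2 (2.34, SE 0.43, adjusted p = 0.000672). In knockout mice Steap2 (0.98), Steap3 (0.67), Slc39a8 (1.34) and Lcn2 (2.65) were higher in g as well, 30.8% against 4.13% of all genes. Macrophage markers were also higher in g. With their mean as a covariate none of the 8 was called in wild-type mice, where Slc25a37 went from 0.51 to 0.076 and Scara5 from 0.84 to 0.52, while Steap2 went from 0.98 to 1.42 and Lcn2 from 2.34 to 4.17. The call of Slc39a14 was also lost when any wild-type array other than sc286WT was left out. The cargo receptor for ferritin breakdown, Ncoa4, was higher by 0.38 in wild-type g. In the knockout comparison in g 2 of the 13 passed, 15.4% against 11.3% of all genes. Lcn2 fell by 1.40 (limma adjusted p = 0.0407) and its receptor Slc22a17 rose by 0.54. In sc Lcn2 differed by -1.71 (SE 0.43) and did not pass (adjusted p = 0.0799). The g call of Lcn2 was kept under 20 of 31 alternatives, and lost when any of g286 WT, g287 WT, g308 WT, g309 WT, g300 KO, g306 KO, g317 KO or g318 KO was left out. Among storage and sensing genes 1 of 7 passed in g, 14.3% against 11.3% of all genes. It was the iron-sensing ubiquitin ligase subunit Fbxl5, which fell by 0.42. In sc Fbxl5 differed by -0.52 (SE 0.13) and did not pass (limma adjusted p = 0.0751). The g call of Fbxl5 was kept under 18 of 31 alternatives, and lost without sc287WT, sc307WT, any wild-type g array, g306 KO, g317 KO or g320 KO.

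Hepcidin axis genes were called for 2 of 19 in g, 10.5% against 11.3% of all genes: the hepcidin inducer Bmp6 rose by 0.89 (SE 0.14, adjusted p = 0.000515) and the receptor Neo1 by 0.56, a call lost without g307 WT, g309 WT, g317 KO or g320 KO. Bmp6 was lower in wild-type g than in sc (-0.72). Haem synthesis genes gave 0 calls of 10 in either knockout comparison by limma, against 0.677% of all genes in sc and 11.3% in g. At an unadjusted p under 0.05 there were 0 in sc and 5 in g, against 10.3% and 24.1% of all genes. In wild-type mice the rate-limiting enzyme Alas1 was lower in g (-0.30), a call lost without sc287WT, sc309WT, g286 WT or g309 WT.

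On the copper side, 2 of 14 transport genes passed in knockout g, 14.3% against 11.3% of all genes. The copper pump Atp7a fell by 0.57 (SE 0.14, limma adjusted p = 0.0119). Its difference was -0.41 with the hepatocyte covariate (adjusted p = 0.0813) and -0.048 with the macrophage covariate (adjusted p = 0.981), so both lost the call. The chaperone Cox17 rose by 0.35, a call lost without any 1 wild-type g array other than g287 WT, or without g300 KO or g320 KO. Copper enzymes went both ways, 3 up and 2 down of 12, 41.7% against 11.3% of all genes. The amine oxidase Aoc3, abundant in fat cells, rose by 0.80 (SE 0.12, adjusted p = 0.000221), as did superoxide dismutase Sod1 (0.31) and Dbh (0.34), while the collagen cross-linking enzyme Lox (-0.68) and Loxl3 (-0.41) fell. Dbh was dim, with group means from 4.17 to 4.51, and the filter on dim genes left it out. In sc Lox differed by -0.84 (SE 0.21) and did not pass (limma adjusted p = 0.0799). Aoc3 kept its call under 29 of 31 alternatives, Loxl3 under 26 of 31 (lost without g286 WT or g287 WT), Lox under 18 of 31, Dbh under 16 of 30 and Sod1 under 12 of 31. The Lox call was lost without sc287WT, sc307WT, sc308WT, any wild-type g array other than g307 WT, g306 KO, g317 KO or g320 KO. That of Dbh was lost without any wild-type g array other than g287 WT, or without g317 KO, g318 KO or g320 KO. That of Sod1 was lost without any wild-type g array, sc287WT, sc308WT, sc309WT, sc300KO, sc306KO, sc317KO, g317 KO, g318 KO or g320 KO. In wild-type mice the metallothionein Mt1, which binds copper and zinc, was higher in g by 0.70, as were Atp7a (0.92) and the transporter Slc31a2 (0.63), while the chaperones Cox17 (-0.50) and Cox19 (-0.41) were lower. Aoc3 was lower too (-0.68). With the macrophage mean as a covariate these depot differences were 0.13 for Atp7a, 0.38 for Mt1, 0.86 for Slc31a2 and -0.093 for Aoc3. Those of Cox17 and Cox19 were -0.51 and -0.58. Between depots, 32 of 105 pathway genes were called in wild-type mice (30.5%, against 17.8% of all genes; 16 higher, 16 lower) and 8 in knockout mice (7.62%, against 4.13%), all 8 higher in g. With the macrophage mean as a covariate the wild-type count was 0, and limma then called 3 of all genes.

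**Figure D5:**
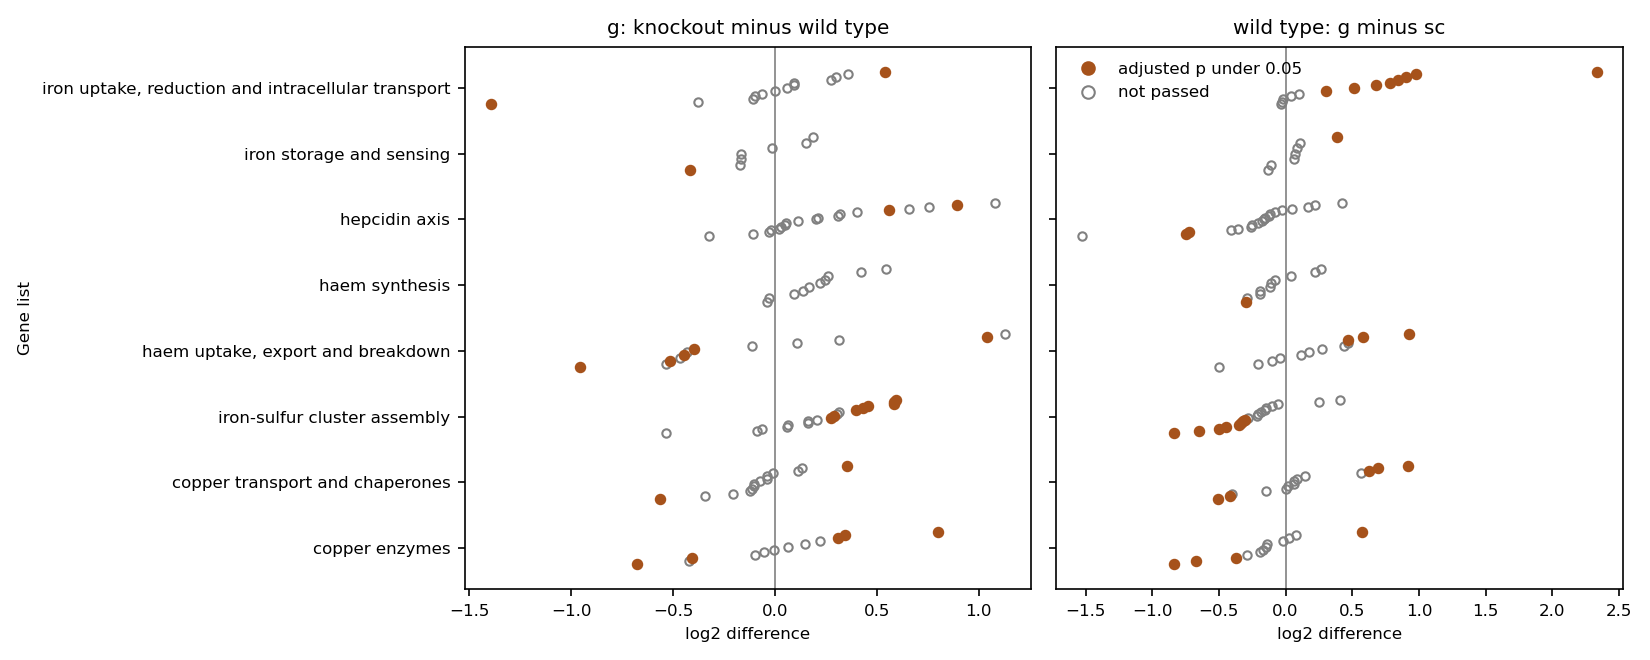
Log2 differences (x axis) of 105 other iron and copper genes by list (y axis) on g arrays, knockout minus wild type (left), and between depots in wild-type mice, g minus sc (right). Filled points passed an adjusted p of 0.05; iron-sulfur assembly genes that passed lie above 0 on the left (8) and below 0 on the right (8).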

How the data were processed

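Per the labels' protocols, 100 ng of total RNA per sample was labelled with the GeneChip WT PLUS kit. Per the submitters' processing notes the authors used RMA and limma, and the authors' values as deposited are on a log2 scale, with 1 value for each probe and array (medians of 5.78 to 5.92). Versions, and whether all arrays were normalised together, are not stated there. Of 28846 probes 19572 carry 1 gene symbol; for 55 genes with several, the probe with the highest mean was kept, which left 19505 genes. Each of the 10 genes studied has 1 probe, and all 10 symbols matched RefSeq by Entrez identifier.

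Groups were read from the sample titles. All 20 arrays were fitted in limma 3.58.1 (R 4.3.3) with 4 group means and no covariate (16 residual degrees of freedom). Adjusted p-values are two-sided, by Benjamini-Hochberg over all 19505 genes; called means an adjusted p under 0.05. SE and 95% intervals are those of the fit. Arrays give no counts, and their number limits the precision. The 10 genes and the lists were chosen with earlier results of these data known. Genes named are the 10, Olfm2 and Alb, called pathway genes, and for Tfr2 and Hephl1 the 5 genes of highest r, Gm and Rik names passed over. Krt79, Ucp1, Hamp and Hpx were picked after they were seen. The fit was tested on simulated data. Hepatocyte-high means a marker mean above 7, lymphocyte-high above 7.5, the latter set after seeing the data. Alternatives were leaving out arrays, marker covariates, fits of 2 groups, a replicate block, a trended prior, a filter on dim genes (group mean of at least 5), another quantile normalisation, means of probes and array weights.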

Additional observations from a re-analysis of the deposited data

Results flagged for a closer look

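Of 48 groups of 5 arrays examined (the 10 genes, Olfm2 and Alb), 3 held an array far from the other 4; chance gives about 1 in 20. All 3 were sc286WT in the wild-type sc group, as the lowest array: Ftl1 at 11.15 (next 11.45), Trf at 11.81 (next 12.20) and Heph at 8.64 (next 9.24). This array also has a lymphocyte marker mean of 8.24 and a skeletal muscle mean of 11.49, whose part in these values was not tested. Without it the wild-type depot difference of Trf was -0.26 and passed (limma adjusted p = 0.0293), while that of Heph was -0.82.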

How the results depend on the processing

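The knockout sc falls of Tfr2 (-2.52 to -1.16) and Hephl1 (-1.70 to -1.33) had the same sign under 31 alternatives each. Counts below are genes called by limma. Leaving out 1 array gave 0 to 1 of 10 genes in knockout g (0 with all arrays), 2 to 4 of 8 for the wild-type depots (3), 0 to 1 of 8 for the knockout depots (1) and 0 of 8 for the difference between depots, and of the pathway genes 0 to 3 in knockout sc (1), 15 to 29 in g (25), 0 to 1 for the difference (0), 26 to 34 (32) and 6 to 9 (8).

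With the hepatocyte covariate 1 of the 10 genes was called in g, 1 with the filter on dim genes and 2 without the lymphocyte-high arrays. For the wild-type depots 5 were called with array weights and 0 with the macrophage covariate. Of all genes 5130 and 3 were called in these respective fits, against 3468 in the fit described. For the knockout depots 0 were called without the hepatocyte-high arrays, with the macrophage covariate, without the lymphocyte-high arrays and in a fit of 2 groups. Pathway genes in sc numbered 4 without the hepatocyte-high arrays and with array weights, 2 with the hepatocyte covariate and in a fit of 2 groups, and 0 with the macrophage covariate and without the lymphocyte-high arrays. In g they numbered 1 without the hepatocyte-high arrays, 11 with the hepatocyte covariate and 0 with the macrophage covariate. For the difference between depots they numbered 2 with the replicate block and 1 with the trended prior, the dim-gene filter and array weights. For the wild-type depots the count was 0 with the macrophage covariate, and for the knockout depots 2 without the hepatocyte-high arrays, 3 with the macrophage covariate and 4 in a fit of 2 groups.

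Signs also turned, for the tested genes as follows. Without the hepatocyte-high arrays, g knockout differences were -0.011 (Trf) and -0.38 (Cp), the Tfrc difference between depots' effects -0.056, and knockout depot differences -0.024 (Trf) and -0.33 (Cp). With the hepatocyte covariate they were -0.0019 (Trf in g), -0.10 (Cp in g), -0.14 (Slc40a1, knockout depots) and -0.041 (Trf, knockout depots). With the macrophage covariate, g knockout differences were 0.22 (Tfrc), 0.16 (Slc11a2), 0.13 (Fth1), 0.091 (Ftl1), -0.091 (Trf) and -0.19 (Cp), the Slc11a2 difference between effects 0.14, wild-type depot differences -0.20 (Tfrc), -0.32 (Slc11a2), -0.22 (Fth1) and 0.068 (Trf), and knockout depot differences -0.18 (Slc11a2), -0.32 (Fth1) and 0.059 (Heph). With array weights Tfrc in g was 0.0056, and the knockout depots gave -0.054 (Slc40a1) and -0.013 (Trf). Without the lymphocyte-high arrays the Tfrc difference between effects was -0.19, and the knockout depots gave -0.21 (Slc40a1), -0.0071 (Fth1) and -0.043 (Trf). Leaving out 1 array, signs turned for Cp in g (-0.031 to 0.20), Tfrc between effects (-0.0046 to 0.26) and, for the knockout depots, Fth1 (-0.045 to 0.088), Slc40a1 (-0.12 to 0.20) and Trf (-0.0090 to 0.060). Of the differences given without a test, those of the knockout depots turned for Tfr2 (0.69 to -0.16) and Hephl1 (0.27 to -0.046) without the lymphocyte-high arrays. In sc they turned for Tfrc (0.10 without the lymphocyte-high arrays), Slc11a2 (0.025 with the macrophage covariate), Ftl1 (-0.11 to 0.17 over all alternatives, -0.078 to 0.043 leaving out 1 array) and Heph (-0.16 to 0.036 leaving out 1 array). The cause was not tested.

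Of all 19505 genes, 31 to 233 were called in sc (132 in the fit described), 1 to 2948 in g (2200), 0 to 41 for the difference (15), 3 to 5130 for the wild-type depots (3468) and 118 to 969 for the knockout depots (806); the lowest counts came with the macrophage covariate, for the knockout depots without the hepatocyte-high arrays. The number in the titles as a replicate block (consensus correlation 0.0863) changed no call of the 10 genes and gave 32 calls over all genes for the difference between depots; the sc and g arrays of a number correlated in their residuals with -0.46 to 0.14 (2 of 10 over 0.1), so the numbers are not shown to pair samples. Without the hepatocyte-high arrays 1 knockout g array is left, assumed to vary like the other groups.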

Other observations

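Among the 10 genes, several pairs moved together within the groups. After subtracting the group means, Trf and Heph had r = 0.78 over the 20 arrays, Hephl1 and Heph 0.77, Fth1 and Ftl1 0.73, Tfr2 and Heph 0.61 and Trf and Tfr2 0.57. Cp went against most of them, with -0.53 beside Ftl1 and -0.52 beside Tfrc. These are descriptions with no p; the arrays share groups and tissue admixture.

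Metallothioneins, which bind zinc and copper, were higher in g than in sc in knockout mice, Mt1 by 0.59 (SE 0.11, limma adjusted p = 0.0038) and Mt2 by 0.90 (SE 0.20, adjusted p = 0.0136). In wild-type mice the differences were 0.70 for Mt1 (adjusted p = 0.000189) and 0.56 for Mt2 (adjusted p = 0.0609). With the macrophage covariate neither was called in knockout mice. The Mt2 call was also lost without the lymphocyte-high arrays and in the fit of 2 groups. Neither gene was called between genotypes.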
